A study of Mus musculus with 6 samples.

Results

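The genes described here are 50 splicing regulators of the 55416 genes in the deposited table, found by matching each Ensembl mouse gene identifier to its GENCODE symbol. They fall into 26 SR-type genes (10 SR proteins, 11 SR-related proteins and 5 genes for CLK kinases and L-type cyclins) and 24 neuronal or tissue-specific regulators of the RBFOX, NOVA, CELF, ELAVL, PTBP, MBNL, QK and KHDRBS families. All 50 passed the filter on low values (at least 1 FPKM, a read density scaled to gene length and library total, in at least 3 libraries). Mean levels ran between 1.19 FPKM for Khdrbs2 and 74.1 FPKM for Srsf5. The libraries came from wild-type (WT) mouse brain primary neurons, 3 infected with an adeno-associated virus carrying miR-9-3p (AAV-hsyn-miR-9-3p, here the miR-9-3p AAV) and 3 with a control AAV. The labels name the control vector in 2 ways, as a scramble and as AAV-hsyn-mCherry, and both groups share the same background of cultured WT neurons and an AAV infection. The hsyn promoter, from a synapsin gene, is active mainly in neurons, so other cells in the culture may hold the vector and not express its cargo. Animal age, brain region and time after infection are not in the labels. Nor do the labels say whether libraries of 1 group are separate cultures. The p-values therefore set a group difference only against the scatter of these libraries, which may be technical scatter. The table holds 1 value per gene, so the levels of the regulators were measured and the use of individual exons was not.

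SR proteins bind exons through RNA recognition motifs and recruit the spliceosome through a tail rich in arginine and serine, which CLK kinases phosphorylate in the nucleus. Neurons add regulators of their own: NOVA, RBFOX, CELF, neuronal ELAVL proteins and SRRM4 set which exons are included in synaptic and cytoskeletal genes, with SRRM4 acting on very short exons. PTBP1 represses many neuronal exons in non-neuronal cells and progenitors, including an exon of Ptbp2, and its loss during differentiation lets PTBP2 appear. In mammals miR-9 is a brain-enriched microRNA whose hairpin yields a 5p and a 3p strand.

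The agent of the experiment is the 3p strand, and the 5p strand of the same hairpin is shown because the labels do not say whether the construct also yields it. Both sequences are from RefSeq, with the seed (bases 2 to 8) in capitals. RefSeq places the 3p strand in Mir9-1 at chr3:88215652-88215673, in Mir9-2 at chr13:83738858-83738879 and in Mir9-3 at chr7:79505318-79505339, all on the plus strand of GRCm38.p6, and the 3 copies give the same mature sequence.
miR-9-3p: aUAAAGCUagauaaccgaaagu
miR-9-5p: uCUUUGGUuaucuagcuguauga

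Nktr, Srrm4 and Celf2 passed the test of miR-9-3p AAV against control AAV, and their longest annotated 3′ untranslated regions (UTRs) hold these matches to the seeds. Each line gives the transcript strand 5′ to 3′, with the bases that pair with the seed, or with its first 6 bases and followed by an A, in capitals. The Nktr match lies at chr9:121756328-121756354 on the plus strand. The Srrm4 matches lie at chr5:116441310-116441336 for the 3p strand and at chr5:116440253-116440279 for the 5p strand, and the Celf2 match lies at chr2:6540605-6540631, these on the minus strand of GRCm38.
Nktr, 3p match: ccctcctcctGCTTTAAgggtccatgt
Srrm4, 3p match: ggtttgtcatGCTTTAAtccaagccag
Srrm4, 5p match: atgggatgctACCAAAGgttgaagaag
Celf2, 5p match: gtgagggaagACCAAAGtgtggtttct

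Library depth, recovered from the steps of low FPKM values, was 16001205 to 17936453 reads, and the members drew 160 to 13781 reads per library, the fewest for Khdrbs2 and the most for Celf2. All 12 neuron markers had a mean of at least 1 FPKM, with summed levels of 1276 to 1575 FPKM in the miR-9-3p AAV libraries and 926 to 1453 FPKM in the control AAV libraries. The 8 astrocyte markers summed to 299 to 323 FPKM in the miR-9-3p AAV libraries and 406 to 471 FPKM in the control AAV libraries, without overlap, but singly 6 were lower and 2 (Slc1a2 and Slc1a3) higher in every miR-9-3p AAV library. The 8 progenitor markers summed to 648 to 658 FPKM in the miR-9-3p AAV libraries and 919 to 1079 FPKM in the control AAV libraries. Most of that sum is Fabp7, at 481 to 522 FPKM with the miR-9-3p AAV and 733 to 891 FPKM with the control AAV, while 4 of the 8 overlapped between groups, 3 were separated and lower, and Mki67 was separated and higher. RNA of lung cells was present in every library: the 8 alveolar type 2 cell markers summed to 509 to 1675 FPKM in the miR-9-3p AAV libraries and 1047 to 5572 FPKM in the control AAV libraries. None of the markers in these lists was at 0 in every library. In bulk RNA, fewer cells of a type and less RNA per cell cannot be told apart, and the part of these cell types in the values below was not tested except where a value with the lung level in the fit is given.

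Of the 50 members, 3 rose and 0 fell in the miR-9-3p AAV libraries (limma on log2(FPKM + 1), Benjamini-Hochberg adjusted p under 0.05 over all 14229 genes tested). Nktr, Srrm4 and Celf2 are those 3. Among all genes tested, 3.89% were higher and 2.4% were lower by the same rule, so the share of members called lay near the background in both directions. At an unadjusted p under 0.05, 11 members were higher and 2 lower, where 14% of all genes were higher and 12.8% lower. Limma's voom on the recovered reads likewise called 3 members higher and 0 lower. The calls needed nearly all libraries: with control AAV library 3 left out 3 members were called (Son in place of Celf2), and with any other single library left out 0 were. The median log2 fold change of the members was 0.14 (lowest -0.44, highest 1.05), with 36 above 0 and 14 below, beside a median of -0.02 over all genes tested, of which 47.3% were above 0. Groups did not overlap for 19 members, 17 higher and 2 lower in the miR-9-3p AAV libraries. Over all genes tested, 18.2% were non-overlapping and higher, and 16.7% were non-overlapping and lower.

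**Figure D1:**
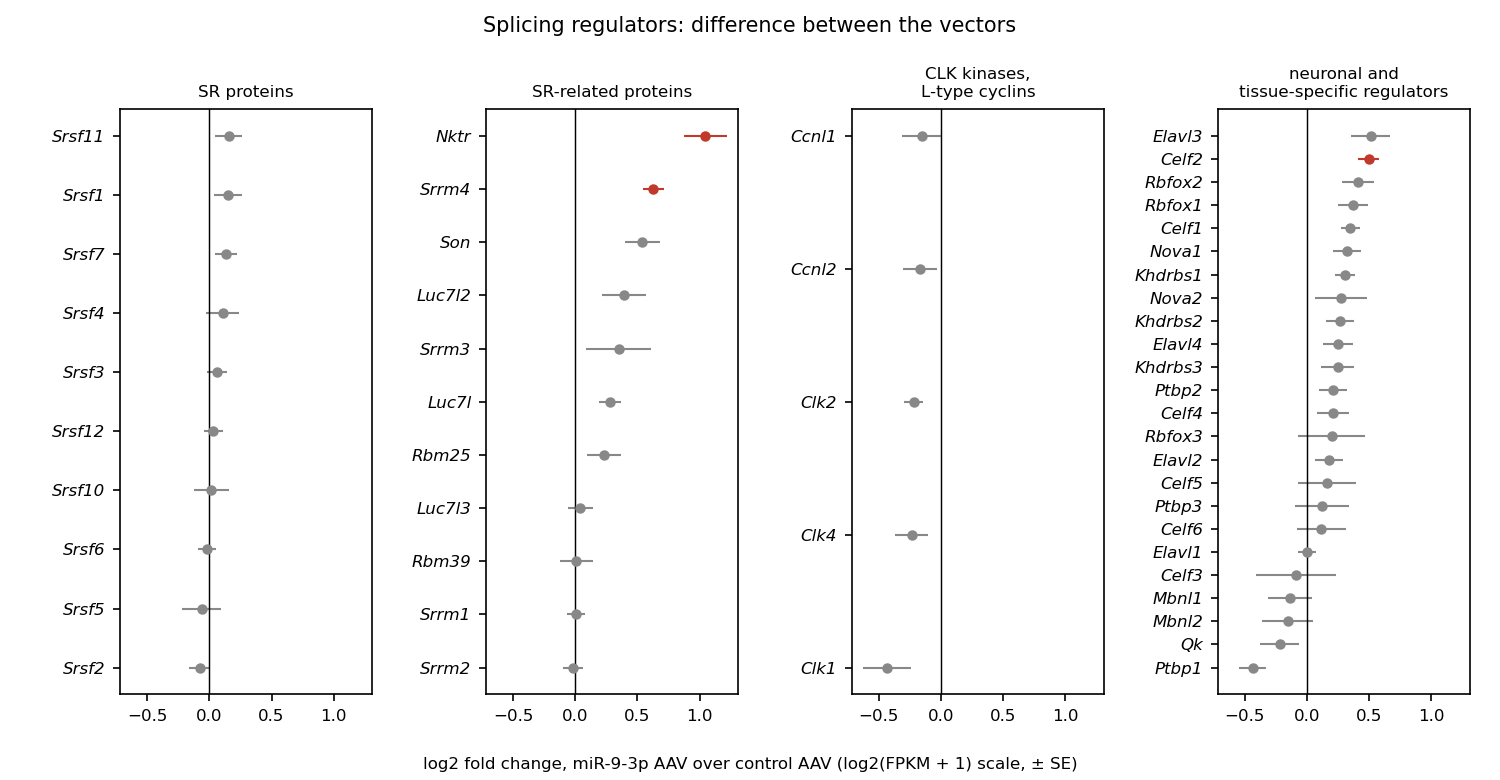
Log2 fold change of each member, miR-9-3p AAV over control AAV, on the log2(FPKM + 1) scale (points, bars are ± SE, 3 libraries per group, red points passed the test and grey ones did not), in 1 panel per class. The SR proteins lie close to 0, the 5 CLK and L-type cyclin genes lie below it, and Nktr at 1.05 is the highest of the 50.

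Exon length moves with the fold change in these data. Across the 14095 genes with an annotated length, the Spearman rho of exon length and log2 fold change was 0.27, given as a description since genes are not independent replicates, and it was 0.32 over the 50 members. The members are long, with a median of 7288 bases of exon beside 4127 over all genes. With the length trend taken out of each library, the same 3 members were called higher and 0 lower, where 3.09% of all genes were higher and 2.24% lower, and the members' median was 0.12.

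The SR-related proteins had the highest share of members above 0 among the 4 classes, at 10 of 11, with a median log2 fold change of 0.28 and 2 members that rose. Over all genes tested, 47.3% were above 0 and 3.89% rose. Nktr encodes a large cyclophilin with arginine-serine repeats, first described on natural killer cells. Its gene (ENSMUSG00000032525) lies on chromosome 9 at 121719169 to 121756843, plus strand, GRCm38. Nktr had 12.2, 10.1 and 9.75 FPKM with the miR-9-3p AAV and 3.50, 4.79 and 5.87 FPKM with the control AAV. Every miR-9-3p AAV library was above every control AAV library. Means were 10.7 ± 1.31 FPKM with the miR-9-3p AAV and 4.72 ± 1.19 FPKM with the control AAV (SD, n = 3 each), which is 1.05 on the log2 scale (SE 0.17, limma, adjusted p = 0.0299). An antisense gene, E530011L22Rik, overlaps 10.25% of the Nktr exons and stood at 0.645 FPKM with the miR-9-3p AAV and 0.732 FPKM with the control AAV. The labels state no strand setting for the counting, so reads of the 2 genes cannot be told apart in the shared bases.

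Srrm4 encodes the neuronal SR-related protein that promotes inclusion of microexons, and its gene (ENSMUSG00000063919) lies on chromosome 5 at 116439275 to 116591817, minus strand. The miR-9-3p AAV libraries gave 11.6, 12.7 and 12.03 FPKM and the control AAV libraries 7.98, 7.55 and 6.86 FPKM. The groups were separate and each was tight, at 12.1 ± 0.546 FPKM with the miR-9-3p AAV and 7.47 ± 0.563 FPKM with the control AAV (SD, n = 3 each). The log2 fold change was 0.63 (SE 0.09; adjusted p = 0.0236 by limma). The overlapping antisense transcript Srrm4os shares 0.78% of the exon bases and averaged 2.21 FPKM with the miR-9-3p AAV and 0.831 FPKM with the control AAV. Srrm3, the paralog that also acts on microexons, was at 5.63, 8.10 and 8.85 FPKM with the miR-9-3p AAV and 7.85, 5.88 and 3.71 FPKM with the control AAV. The Srrm3 groups overlapped, and its difference was within the spread between libraries (0.35, SE 0.26, adjusted p = 0.415). It turned to -0.11 with the lung level in the fit.

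**Figure D2:**
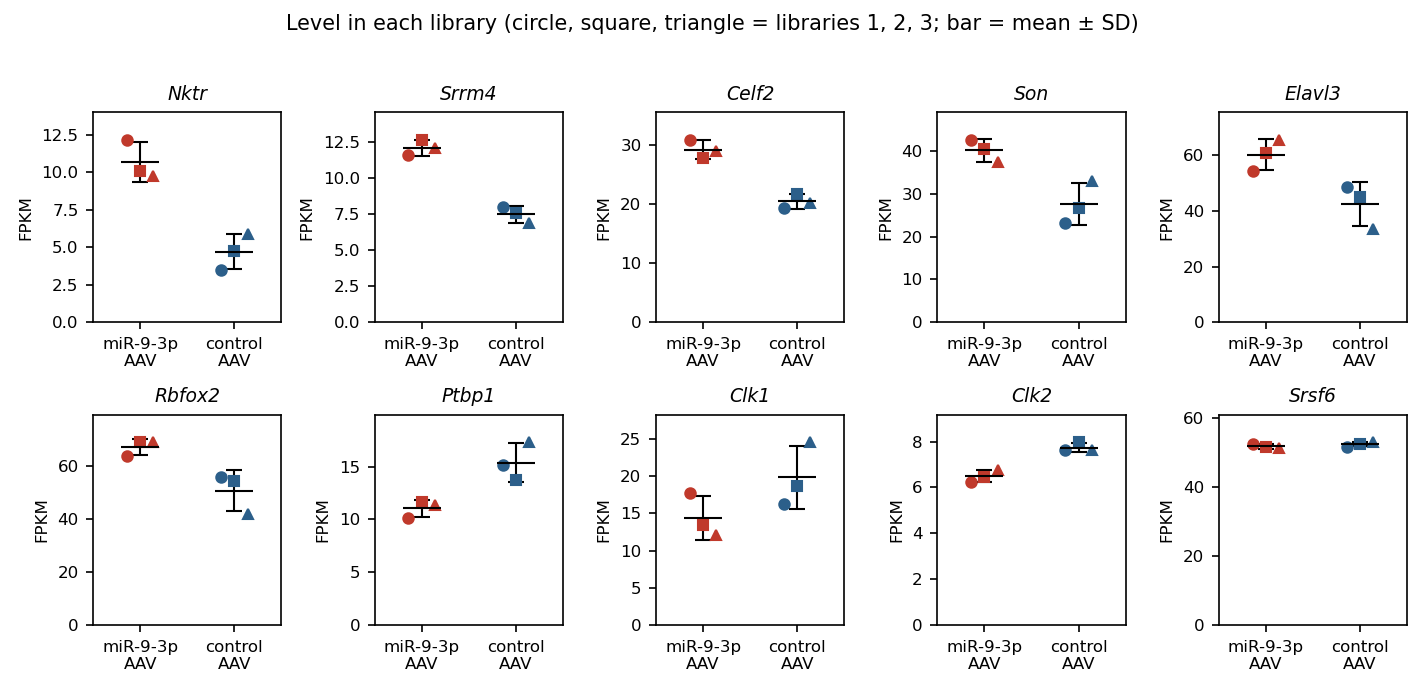
FPKM in each library for 10 members, miR-9-3p AAV left and control AAV right, with circle, square and triangle for libraries 1, 2 and 3 and bars for the mean ± SD (n = 3). The groups are apart for Nktr, Srrm4 and Celf2, which passed the test, and also for Son, Elavl3, Rbfox2, Ptbp1 and Clk2, which did not. Clk1 and Srsf6 overlap.

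Son encodes a scaffold of nuclear speckles, the bodies where splicing factors gather. It was at 42.7, 40.5 and 37.4 FPKM with the miR-9-3p AAV and 23.1, 26.7 and 33.0 FPKM with the control AAV. The groups did not overlap, but control AAV library 3 came close to the lowest miR-9-3p AAV library, and the difference missed the threshold (0.54, SE 0.14, adjusted p = 0.0738). Srrm2, the other large speckle scaffold, averaged 47.1 ± 1.38 FPKM with the miR-9-3p AAV and 47.7 ± 1.85 FPKM with the control AAV (SD, n = 3 each), a log2 fold change of -0.02 (limma adjusted p = 0.918). Srrm1, a coactivator that joins exon-bound complexes, averaged 22.4 ± 0.745 FPKM with the miR-9-3p AAV and 22.3 ± 0.578 FPKM with the control AAV. The LUC7-like genes, whose yeast relative belongs to the U1 particle, differed among themselves. Luc7l was at 21.7, 21.1 and 21.4 FPKM with the miR-9-3p AAV and 16.1, 19.3 and 17.1 FPKM with the control AAV, without overlap (0.28, adjusted p = 0.115). Luc7l2 had a log2 fold change of 0.39 with overlapping groups (adjusted p = 0.213), and Luc7l3 one of 0.04. Rbm25 at 0.23 and Rbm39 at 0.01, 2 RNA-binding cofactors of the spliceosome, also had overlapping groups.

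The 10 SR proteins had the narrowest range of log2 fold changes among the 4 classes. By limma 0 passed the test, 0 had an unadjusted p under 0.05 in either direction, and voom also called 0. At that unadjusted limma p, 14% of all genes were higher and 12.8% lower. Of these genes, 3 were below 0 and 7 above, and their log2 fold changes ran between -0.08 for Srsf2 and 0.16 for Srsf11, with a median of 0.05. Srsf6 was at 52.4, 51.6 and 51.1 FPKM with the miR-9-3p AAV and 51.7, 52.4 and 52.9 FPKM with the control AAV. All 6 values lay within a span smaller than 2 FPKM, with a log2 fold change of -0.02 (SE 0.07). Srsf2 was at 50.9, 54.9 and 55.0 FPKM with the miR-9-3p AAV and 57.1, 54.3 and 58.5 FPKM with the control AAV, overlapping (adjusted p = 0.58). Srsf5, the most abundant member, was at 78.7, 67.9 and 69.6 FPKM with the miR-9-3p AAV and 65.8, 68.6 and 94.0 FPKM with the control AAV. Its spread in the control group came from library 3, and its log2 fold change of -0.06 (SE 0.16) turned to 0.20 with the lung level in the fit. Srsf7 was the only SR protein of the 10 whose groups did not overlap, at 42.3, 37.9 and 37.3 FPKM with the miR-9-3p AAV and 33.8, 35.8 and 37.2 FPKM with the control AAV, by a gap smaller than the spread in either group (0.13, adjusted p = 0.373). In the order of levels, Srsf5 was above Srsf2 and Srsf6 above Srsf1 in 6 of 6 libraries, whereas Srsf2 was above Srsf6 in 5 of 6.

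The CLK kinases, which phosphorylate SR proteins, and the L-type cyclins, partners of splicing-linked CDK11 kinases, were the class furthest below 0. By limma 0 passed the test, and voom also called 0. At an unadjusted limma p under 0.05, 0 were higher and 1 lower, where 14% of all genes were higher and 12.8% lower. All 5 log2 fold changes were below 0, and the median was -0.22 (lowest -0.43, highest -0.15). Clk1 was at 17.7, 13.4 and 12.1 FPKM with the miR-9-3p AAV and 16.2, 18.7 and 24.6 FPKM with the control AAV. The groups overlapped, since miR-9-3p AAV library 1 was above control AAV library 1 (-0.43, SE 0.19, adjusted p = 0.207). Clk2 was at 6.23, 6.48 and 6.77 FPKM with the miR-9-3p AAV and 7.62, 7.97 and 7.62 FPKM with the control AAV, the only separated pair in the class (-0.22, SE 0.08, adjusted p = 0.127). Clk4 was at 14.5, 11.5 and 11.4 FPKM with the miR-9-3p AAV and 13.2, 14.6 and 16.9 FPKM with the control AAV, overlapping (-0.24, adjusted p = 0.291). Clk1 ranked above Clk4 and Clk4 above Clk2 in 6 of 6 libraries. Ccnl1 at -0.15 and Ccnl2 at -0.17 had overlapping groups. With the lung level in the fit the class median was -0.05, Clk1 was at -0.12, and Ccnl1 and Ccnl2 turned to 0.08 and 0.04.

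Among the 24 neuronal and tissue-specific regulators, 1 rose and 0 fell, 19 were above 0 and 5 below, and the median log2 fold change was 0.21 (lowest -0.44, highest 0.51). By the same rule 3.89% of all genes rose and 2.4% fell, and 47.3% were above 0. Groups did not overlap for 13 of the 24, 12 higher and 1 lower, where 18.2% and 16.7% of all genes were. The 26 SR-type, CLK and cyclin genes had 2 called, a median of 0.04 and 6 without overlap, 5 higher and 1 lower. In the fit with the lung level, 18 of the 24 neuronal and tissue-specific regulators were above 0, but not the same genes. Rbfox3 (-0.24), Nova2 (-0.07), Celf5 (-0.26) and Celf6 (-0.22) turned below 0, and Celf3 was at -0.66. Qk (0.03), Mbnl1 (0.15) and Mbnl2 (0.20) turned above 0. The difference between the 2 sides was not tested. The neuronal side had a median between 0.15 and 0.28 over the 18 alternative fits, some of which leave every log2 fold change as it was. Over the same fits the median ran between 0.22 and 0.345 in the SR-related proteins. It ran between 0.02 and 0.15 in the SR proteins and between -0.29 and -0.05 in the CLK and cyclin genes. With the lung level in the fit the median was 0.19 on the neuronal side and 0.10 on the SR-type side. With the airway set as a batch, described below, the medians were 0.22 and 0.10. The lung-level fit called 4 higher on each side and 1 lower on the neuronal side, where 9.9% of all genes were higher and 9.1% lower.

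CELF proteins bind GU-rich RNA and act in splicing, stability and translation. Celf2 (ENSMUSG00000002107), on chromosome 2 at 6539694 to 7509563, minus strand, was at 31.0, 27.9 and 29.1 FPKM with the miR-9-3p AAV and 19.4, 21.8 and 20.3 FPKM with the control AAV. The groups were apart by more than the range within either. Means were 29.3 ± 1.58 FPKM with the miR-9-3p AAV and 20.5 ± 1.21 FPKM with the control AAV (SD, n = 3 each), or 0.50 on the log2 scale (SE 0.09, limma, adjusted p = 0.0323). With the exon length trend taken out it was 0.40 (adjusted p = 0.0496). The antisense gene Gm26565 overlaps 7.58% of the Celf2 exons and is not among the genes listed. Celf1 was at 35.7, 36.4 and 35.5 FPKM with the miR-9-3p AAV and 26.6, 28.8 and 28.4 FPKM with the control AAV. Those groups were also apart, and the adjusted p of 0.0508 missed the threshold (0.35, SE 0.08). The neuron-enriched Celf3, Celf4, Celf5 and Celf6 had overlapping groups and log2 fold changes of -0.09, 0.21, 0.16 and 0.11. With the lung level in the fit these were -0.66, 0.02, -0.26 and -0.22, so Celf5 and Celf6 changed sign. Celf4 was the most abundant, at 63.3 ± 4.70 FPKM with the miR-9-3p AAV and 54.8 ± 7.26 FPKM with the control AAV, and it stood above the next member in 6 of 6 libraries. Celf5, Celf3 and Celf1 had means close together (32.7, 32.5 and 31.9 FPKM over all 6 libraries) and no order that held in every library.

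The RBFOX proteins bind a shared motif beside alternative exons and are abundant in neurons. Rbfox2 was at 63.8, 69.1 and 69.2 FPKM with the miR-9-3p AAV and 56.2, 54.3 and 42.1 FPKM with the control AAV, without overlap (0.41, SE 0.13, adjusted p = 0.109). Rbfox1 was at 22.2, 24.8 and 25.2 FPKM with the miR-9-3p AAV and 20.4, 19.3 and 15.7 FPKM with the control AAV, without overlap (0.37, SE 0.12, adjusted p = 0.113). In both genes control AAV library 3, the library with the most lung RNA, was the lowest, and with the lung level in the fit the log2 fold changes were 0.21 for Rbfox2 and 0.19 for Rbfox1. Rbfox3, which encodes the neuronal marker NeuN, overlapped, at 12, 16.2 and 20.8 FPKM with the miR-9-3p AAV and 18.5, 14.3 and 9.89 FPKM with the control AAV (0.20, adjusted p = 0.666), and turned to -0.24 with the lung level in the fit. Rbfox2 was above Rbfox1 and Rbfox1 above Rbfox3 in 6 of 6 libraries. The ratio of Rbfox1 to Rbfox2 hardly varied, at 0.357 ± 0.00861 with the miR-9-3p AAV and 0.364 ± 0.00867 with the control AAV (SD, n = 3 each; exact two-sided permutation p = 0.5). In all, 8 such ratios were computed, and 3 libraries against 3 cannot give an exact p below 0.1.

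NOVA proteins control exons of synaptic genes. Nova1 was at 12.4, 10.4 and 9.29 FPKM with the miR-9-3p AAV and 8.002, 8.54 and 8.35 FPKM with the control AAV, without overlap (0.32, SE 0.11, adjusted p = 0.132). Nova2, above Nova1 in 6 of 6 libraries, was at 26.6, 35.6 and 39.3 FPKM with the miR-9-3p AAV and 34.3, 28.2 and 21.5 FPKM with the control AAV, overlapping (0.27, SE 0.21, adjusted p = 0.434). Nova2 turned to -0.07 with the lung level in the fit, where Nova1 was at 0.39. Inside the miR-9-3p AAV group the 2 genes ran in opposite order over the libraries, Nova1 highest and Nova2 lowest in library 1.

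ELAVL proteins bind AU-rich RNA, ELAVL1 in most cells and ELAVL2, ELAVL3 and ELAVL4 in neurons. Elavl3 was at 54.4, 60.7 and 65.6 FPKM with the miR-9-3p AAV and 48.7, 44.9 and 33.4 FPKM with the control AAV, without overlap (0.51, SE 0.16, adjusted p = 0.105), and its log2 fold change was 0.25 with the lung level in the fit. Elavl1 was nearly the same in all libraries, at 10.4, 9.97 and 10.6 FPKM with the miR-9-3p AAV and 10.3, 10.4 and 10.3 FPKM with the control AAV (0.00, SE 0.07). The groups of Elavl4 were apart, at 26.7, 20.8 and 20.7 FPKM with the miR-9-3p AAV and 19.4, 19.0 and 18.1 FPKM with the control AAV (0.25, adjusted p = 0.231). Elavl2 had a log2 fold change of 0.17 (adjusted p = 0.352), with groups separated by a gap far smaller than their spread. The order Elavl3, Elavl4, Elavl2, Elavl1 held in 6 of 6 libraries.

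**Figure D3:**
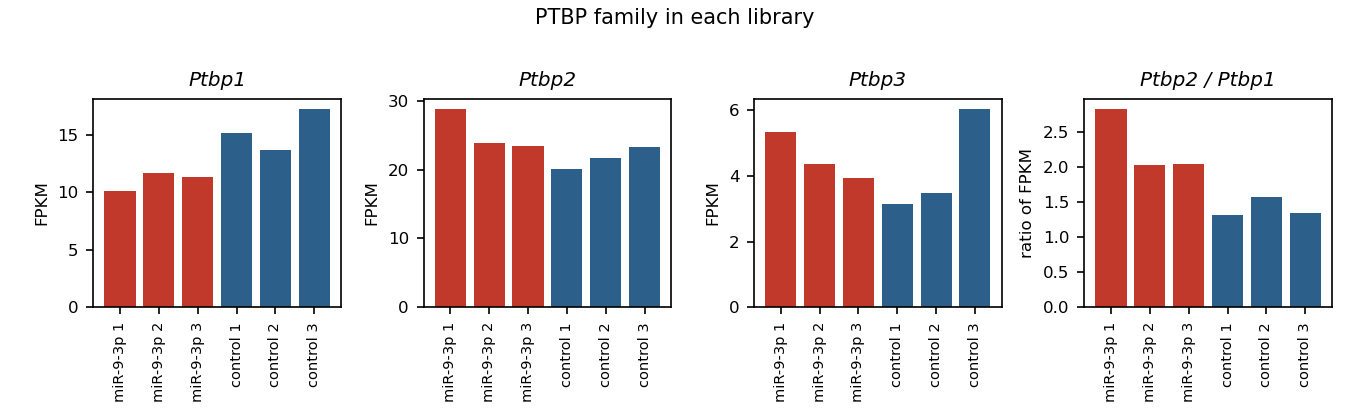
FPKM of Ptbp1, Ptbp2 and Ptbp3 and the ratio of Ptbp2 to Ptbp1 in each of the 6 libraries (bars, 1 per library; no error bars). Ptbp1 is lower and the ratio higher in each miR-9-3p AAV library than in any control AAV library.

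The PTBP family holds the member furthest below 0. Ptbp1 was at 10.2, 11.7 and 11.4 FPKM with the miR-9-3p AAV and 15.2, 13.7 and 17.3 FPKM with the control AAV. The groups did not overlap, and the difference missed the threshold (-0.44, SE 0.11, limma adjusted p = 0.0672). The summed astrocyte and progenitor markers, given above, were also lower in every miR-9-3p AAV library, though single markers of both lists were not (log2 fold changes of -1.55 for Gfap, 0.21 for Slc1a2, -0.72 for Fabp7 and 0.44 for Mki67), and their part in the Ptbp1 value was not tested. Ptbp2 was at 28.9, 23.8 and 23.4 FPKM with the miR-9-3p AAV and 20.1, 21.7 and 23.3 FPKM with the control AAV (0.21, SE 0.11, adjusted p = 0.272). Its groups just failed to touch. Ptbp3, the paralog prominent in blood cells, overlapped at 5.33, 4.38 and 3.95 FPKM with the miR-9-3p AAV and 3.14, 3.48 and 6.06 FPKM with the control AAV (0.12, adjusted p = 0.757), and was at 0.51 with the lung level in the fit. The ratio of Ptbp2 to Ptbp1 was 2.84, 2.04 and 2.06 in the miR-9-3p AAV libraries and 1.32, 1.58 and 1.35 in the control AAV libraries. Every miR-9-3p AAV library was above every control AAV library, which follows from the separation of Ptbp1 and Ptbp2 in opposite directions. The log2 difference was 0.69, with an exact two-sided permutation p of 0.1, the smallest this design allows (0.267 adjusted over the 8 ratios). That p was therefore fixed by the values of the 2 genes. The ratios of Elavl3 to Elavl1 and of Clk4 to Clk1 had the same permutation p of 0.1. Plppr3 on the opposite strand overlaps 5.3% of the Ptbp1 exons, at 56.1 FPKM with the miR-9-3p AAV and 56.9 FPKM with the control AAV.

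The remaining regulators belong to the KHDRBS, QK and MBNL families. Khdrbs1, which encodes SAM68, was at 37.7, 36.3 and 34.9 FPKM with the miR-9-3p AAV and 29.3, 29.7 and 28.5 FPKM with the control AAV, without overlap (0.30, SE 0.08, adjusted p = 0.0682). Khdrbs2 and Khdrbs3, its relatives expressed in neurons, had separated groups too, with log2 fold changes of 0.26 and 0.25 that missed the threshold (adjusted p = 0.197 and 0.287). Khdrbs2 was close to the filter, at 1.25, 1.47 and 1.47 FPKM with the miR-9-3p AAV and 0.972, 1.06 and 0.953 FPKM with the control AAV. Qk, abundant in glia, was at 42.1, 35.0 and 31.6 FPKM with the miR-9-3p AAV and 36.0, 41.3 and 50.1 FPKM with the control AAV, overlapping (-0.22, adjusted p = 0.402). Mbnl1 and Mbnl2, the muscleblind regulators of postnatal splicing, overlapped as well, at -0.14 and -0.16. All 3 signs turned with the lung level in the fit, to 0.03 for Qk, 0.15 for Mbnl1 and 0.20 for Mbnl2, and Khdrbs3 was at 0.05.

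**Figure D4:**
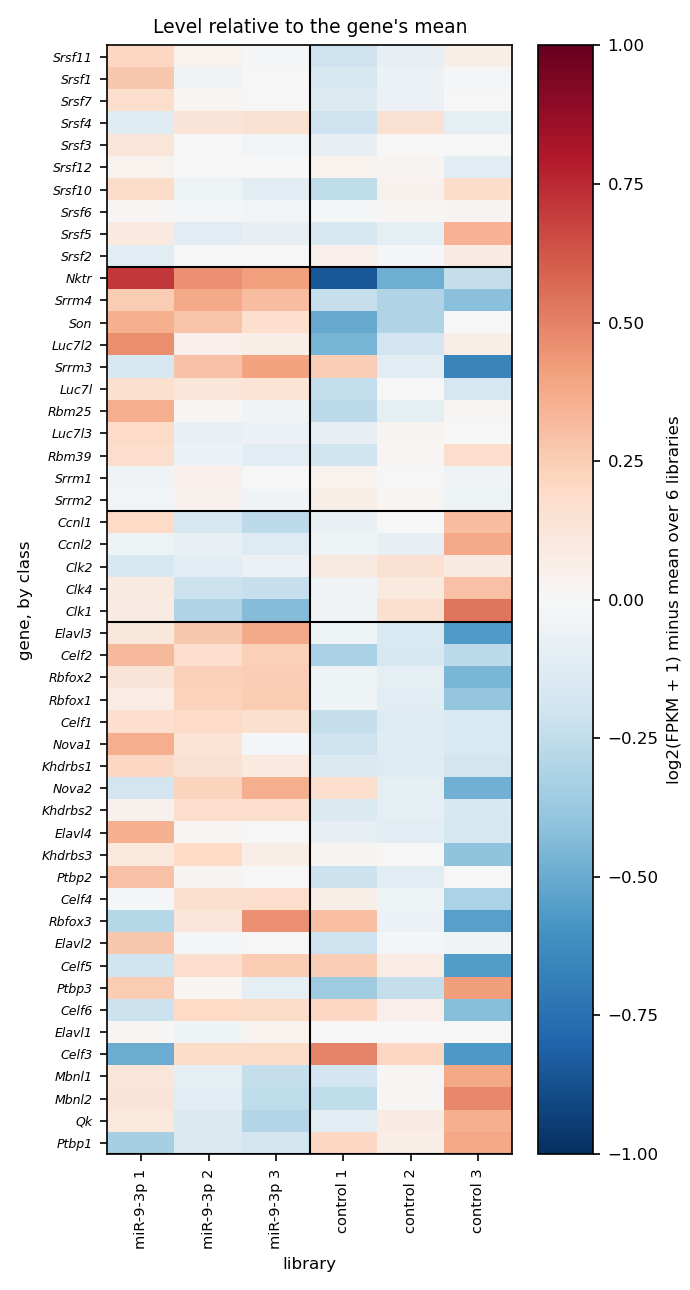
Log2(FPKM + 1) of each of the 50 members in each library, minus the gene's mean over the 6 libraries (rows by class, 3 miR-9-3p AAV libraries left of the line and 3 control AAV libraries right of it). Control AAV library 3 stands out in both directions, low for Celf3, Rbfox3 and Srrm3 and high for Ptbp3, Mbnl2 and Clk1.

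Lung RNA separated the libraries within each group, and the members followed it unequally. The lung level, the median log2(FPKM + 1) of the alveolar type 2 markers, was 4.57, 3.94 and 3.86 in the miR-9-3p AAV libraries and 4.30, 4.73 and 6.35 in the control AAV libraries. Of those 8 markers, 7 rose with it within groups and Abca3 fell. Blood markers summed to 119 to 283 FPKM with the miR-9-3p AAV and 154 to 960 FPKM with the control AAV. Endothelial and mural markers summed to 18.8 to 57.5 FPKM and 53.1 to 210 FPKM. Both sums were highest in control AAV library 3, and their part in the values was not tested. Within groups, Celf3 had a slope of -0.57 log2 units per unit of lung level, and Srrm3, Rbfox3 and Celf5 had slopes of -0.46, -0.44 and -0.42. Ptbp3, Mbnl2, Clk1 and Nktr had slopes of 0.39, 0.35, 0.31 and 0.27. These slopes rest on 6 libraries, with control AAV library 3 far from the others, and are given without a test. The airway gene Bpifa1 also split the libraries into sets, at 0.939% of the Scgb1a1 level in miR-9-3p AAV library 1 and 0.966% and 0.959% in control AAV libraries 2 and 3, but 0 in miR-9-3p AAV libraries 2 and 3 and 0.0293% in control AAV library 1.

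**Figure D5:**
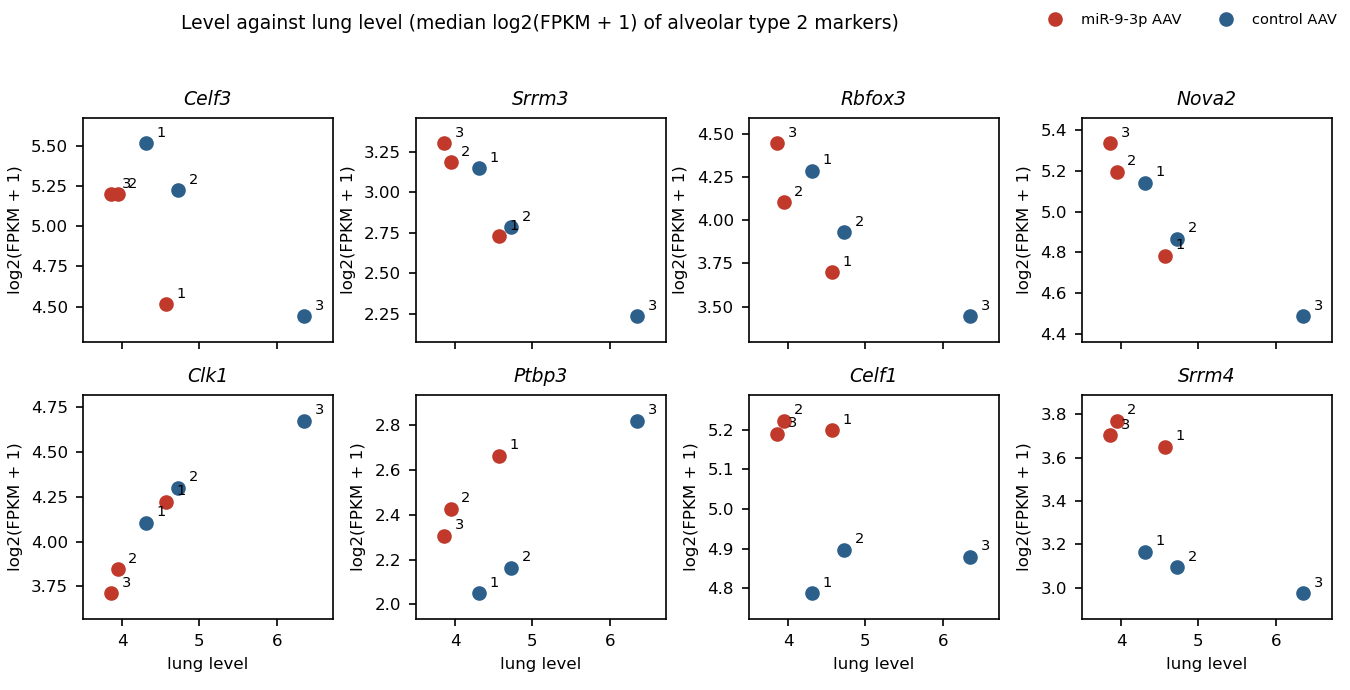
Log2(FPKM + 1) of 8 members against the lung level of each library (median log2(FPKM + 1) of 8 alveolar type 2 markers), 1 point per library, miR-9-3p AAV and control AAV in separate colours. Control AAV library 3 lies alone at 6.35, where Celf3, Srrm3, Rbfox3, Nova2 and Srrm4 are lowest and Clk1 and Ptbp3 highest.

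Within an airway set, 1 group has a single library (miR-9-3p AAV library 1 in the high set, control AAV library 1 in the low set), so the differences of the 3 called members there are given as values with no test. The log2 difference was 1.06 in the high set and 1.28 in the low set for Nktr, 0.61 and 0.57 for Srrm4, and 0.54 and 0.53 for Celf2. With the lung level as a covariate Nktr was at 1.32, Srrm4 at 0.54 and Celf2 at 0.52, all called. That fit called 8 members higher and 1 lower, where 9.9% of all genes were higher and 9.1% lower: Son (0.76), Luc7l2, Celf1, Khdrbs1 and Ptbp3 joined the 3 upward, and Celf3 (-0.66, adjusted p = 0.0276) was called lower. With the airway set as a batch, 12 members were higher and 1 lower, where 9.91% and 8.74% of all genes were, and Ptbp1 was that lower member (-0.46, adjusted p = 0.0426). Without the library with the most lung RNA in each group, 5 members were higher and 0 lower (Son and Elavl3 with the 3), where 5.53% of all genes were higher and 5.99% lower. Without control AAV library 3, 3 members were higher and 0 lower, where 3.23% and 2.02% of all genes were, and these were Nktr, Srrm4 and Son, with Celf2 no longer called. Leaving out any other single library left 0 genes called by limma, with 1452 to 1823 higher and 1277 to 1887 lower at an unadjusted p under 0.05, among them 7 to 10 members higher and 1 to 3 lower. None of these fits called an SR protein, a CLK kinase or an RBFOX member, though those with 0 genes called could call no member of any family.

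Other splicing genes gave a background for the members. Of 156 in 6 lists, 150 were tested, 1 rose and 1 fell, where 3.89% of all genes rose and 2.4% fell. Groups did not overlap for 30 that were higher and 15 that were lower, where 18.2% and 16.7% of all genes were. Cdk13, which encodes a transcription and splicing kinase with an arginine-serine-rich region, rose and was at 8.11, 8.22 and 8.02 FPKM with the miR-9-3p AAV and 5.21, 5.61 and 6.32 FPKM with the control AAV (0.44, adjusted p = 0.0423). Pcbp2, a poly(C)-binding hnRNP protein, fell to 30.01, 31.4 and 30.2 FPKM with the miR-9-3p AAV, against 42.2, 45.2 and 39.8 FPKM with the control AAV (-0.46, adjusted p = 0.0359). Medians were 0.11 in the 23 other SR and SR-related proteins, 0.14 in the 11 other splicing kinases and SR import factors, 0.11 in the 28 hnRNP and FET proteins, -0.07 in the 57 core spliceosome proteins, 0.06 in the 17 other tissue-specific regulators and 0.02 in the 14 decay and exon junction factors. Below the threshold, the lowest p in each list without a call belonged to Scaf8 (0.32) and Zranb2 (0.43), Snrnp27 (-0.36) and Snrpf (0.89), Fubp1 (0.44) and Tia1 (0.42), and Smg1 (0.50) and Magoh (-0.27), the values being log2 fold changes.

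Seed matches were counted in the longest annotated 3′ UTR as a description. A match is AGCTTTA or GCTTTAA for the 3p strand and ACCAAAG or CCAAAGA for the 5p strand, on the transcript strand, the 2 words of a pair overlapping where all 8 bases are present. For the 3p strand 19 of 50 members (38%) had a match, beside 2498 of 12194 genes tested (20.5%), and for the 5p strand 24 of 50 (48%), beside 23.4%. The members' UTRs are longer, with a median of 2085 bases beside 1255, and a longer UTR holds more words by length alone. The neuronal regulators, with a median UTR of 2923 bases, had a 5p match in 18 of 24 and a 3p match in 8 of 24. The SR proteins, with a median of 1749 bases, had a 3p match in 6 of 10. The CLK and cyclin genes, with a median of 349 bases, had none. The median log2 fold change was 0.15 for the members with a 3p match and 0.12 for those without, beside 0.07 and -0.06 over all genes. Among the neuronal regulators it was 0.09 with a 3p match and 0.21 without. For the 5p match the members' medians were 0.21 with and 0.04 without, beside 0.03 and -0.05 over all genes. By class they were 0.21 with and 0.22 without in the neuronal regulators, and 0.02 and 0.06 in the SR proteins. In the SR-related proteins they were 0.28 and 0.195, and the CLK and cyclin genes had no match. The members with and without a 5p match thus differ in class. The 8-base form of the 3p match was in 7 members (14%), beside 4.84% of genes. For the 5p strand the 8-base form was in 3 members (6%), beside 4.58% of genes, and in 2 of the 24 neuronal regulators.

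In the PTBP family a 5p match stands in a stretch that its members share in part, shown here because Ptbp1 and Ptbp2 differ in sign. The sites lie at chr10:79864007-79864033 (plus strand), chr3:119719330-119719356 (minus) and chr4:59473164-59473190 (minus) of GRCm38, with the match in capitals.
Ptbp1, 5p match: aaaattttggACCAAAGtttagctttc
Ptbp2, 5p match: accaggtgggACCAAAGtttatgtgcc
Ptbp3, 5p match: acaaaacaggACCAAAGtttatgtgcc
Around the match Ptbp2 and Ptbp3 share an unbroken run of 21 bases, and Ptbp1 shares 13 with each, the 7 bases of the match included. Ptbp3 also has an 8-base 5p match elsewhere in its UTR, at chr4:59472573-59472600. A match in these letters does not show that a microRNA binds there.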

How the data were processed

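The authors deposited 1 table of FPKM values, with 1 column for each of the 6 libraries, per the file headers. The submitters' processing notes list HISAT2, Cufflinks 2.2.1 and mm10 without saying what each was used for; the labels name no annotation, strand setting or filter. Symbols, positions and UTRs were taken from GENCODE M21 (GRCm38), which matched 52083 of 55416 identifiers. FPKM divides by length and library total, so RNA of other cells in a library lowers its other values. Dividing by each gene's step gave whole reads (within 0.01) for 98.05% to 98.14% of values. The test was limma 3.58.1, run in R 4.3.3 on log2(FPKM + 1), a scale that understates differences of low genes (intensity trend, no covariates, all 6 libraries) on genes of at least 1 FPKM in at least 3 libraries. Run on simulated data with known changes, it missed many of the changed genes, so a gene not called may still differ. On recovered reads, limma's voom called 541 genes higher and 425 lower, beside 554 and 341.

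The members, lists and tests were chosen with earlier results of these data known. The text names called members, the 5 largest differences and 5 highest means among those not called, and the RBFOX, NOVA, PTBP, ELAVL and CLK families; other members named were chosen after their values were seen, as class examples. In each list it names up to 4 called genes or, with none, the 2 of lowest p. Alternatives were another pseudocount, filter, scaling, the replicate block, leaving out libraries, the lung level or airway set as a covariate, and removal of the length trend. Every pair of libraries differed by more than sampling noise.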

Additional observations from a re-analysis of the deposited data

How the results depend on the processing

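No called member changed sign in any of the 18 alternative fits. The replicate block, the changes of filter and the fit without the intensity trend leave the log2 fold change as it was, so they could not turn a sign. Nktr was called in 11 (adjusted p 0.0114 to 0.254), Srrm4 in 12 (0.0142 to 0.253) and Celf2 in 10 (0.0145 to 0.26). Leaving out 1 library at a time gave 0 to 459 genes higher and 0 to 287 lower, 0 to 3 members higher, 0 to 3 SR-type and CLK members higher, 0 to 0 neuronal regulators higher, and 0 to 2 other splicing genes higher with 0 to 1 lower. All of these counts were 0 without any 1 library except control AAV library 3; without that library Nktr, Srrm4 and Son were called and Celf2 was not.

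The labels number the libraries 1 to 3 in both groups. Deviations of same-numbered libraries correlated at -0.649, 0.111 and -0.535, so the numbers were not taken as pairs; with the replicate block 0 genes were higher and 0 lower, hence 0 members, 0 SR-type and CLK members, 0 neuronal regulators and 0 other splicing genes in either direction by limma (1191 genes higher and 1022 lower at an unadjusted p under 0.05). With no filter 109 genes were higher and 67 lower, with 1 member higher (Srrm4, so 1 SR-type member), 0 neuronal regulators, and 0 other splicing genes higher and 0 lower. A filter of 5 FPKM gave 2 neuronal regulators higher and 3 other splicing genes higher, and quantile normalization gave 2 neuronal regulators higher. Median-of-ratios scaling and removal of the length trend each gave 0 other splicing genes higher.

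With the lung level as a covariate 1408 genes were higher and 1295 lower, with 8 members higher and 1 lower, 4 SR-type and CLK members higher, 4 neuronal regulators higher and 1 lower, and 17 other splicing genes higher and 12 lower. With the airway set as a batch these were 1410 and 1243, 12 and 1, 6, 6 and 1, and 17 and 8. Without the library with the most lung RNA in each group, 787 genes were higher and 853 lower, 5 members and 2 neuronal regulators were higher, and 3 other splicing genes were higher and 3 lower. The cause of these differences was not tested. The depth gave at least 160 reads for each member in each library.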
